A study of Homo sapiens with 44 samples.

Results

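Genes that stood low after a day of strong T-cell-type stimulation were examined in OVCAR5 cells. OVCAR5 is an established tumour line, labelled ovarian carcinoma. The genes were chosen by D, the log2(TPM + 1) of a 24 h library minus the mean log2(TPM + 1) of 3 reference libraries of 24 h. TPM is a level per transcript length, scaled to the same total in each library. A protein-coding gene was a member where D was -1 or less both in supernatant 1/2 and in 100 ng/ml IFNγ with 10 ng/ml TNFα, called the combination here. The rule left out 2 further genes by name and 50 cell-cycle genes that met this condition. The condition was met by 500 genes and 448 became members, of 19880 protein-coding genes and 33538 genes in the tables. The members were thus selected on the TPM of these 5 libraries, and 24 h levels against the references are given as a description with no test.

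The series holds 44 libraries: 11 treatments, each left on the cells for 2, 6, 12 or 24 h, and 1 library for each treatment at each time. All cells carried a reporter of IFNγ sensing and CFP, the references included. The references were unstimulated cells, 0.01 ng/ml IFNγ, and supernatant diluted 1/20000. The other groups were TNFα at 0.1, 1 or 10 ng/ml, IFNγ at 1 or 100 ng/ml, the combination, and supernatant at 1/200 or 1/2, the supernatant coming from tumour cells grown with T cells. The cells are 1 line, and the labels do not say that libraries came from separate cultures. A p-value here speaks only of how far the reference libraries of 2, 6 and 12 h spread. Each stimulated library is alone in its group and is assumed to vary as those references do. Total estimated counts ran from 9586125 to 16270128 per library. Mitochondrial transcripts took 9.38% to 9.81% of counts in the 24 h references, 7.11% in supernatant 1/2 and 7.87% in the combination, and the part of this in the results was not tested. Of 12 ovarian and epithelial markers, 9 reached 1 TPM in some library, KRT8 at a median of 1346 TPM and PAX8 at 7.85 TPM. WT1, MUC16 and ESR1 stayed below 1 TPM in all 44 libraries. Of 14 T-cell and leukocyte markers 1 reached 1 TPM, and their summed level was 0.619 TPM in supernatant 1/2 at 24 h against 1.73 to 3.24 TPM in the references.

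IFNγ signals through JAK kinases and TNFα through NF-κB and MAP kinases, and both pathways are best known for the genes they switch on. In epithelia and liver, inflammatory cytokines are also known to lower differentiation genes and nuclear receptors with their lipid and drug metabolism targets. In bulk RNA, fewer cells of a kind and less RNA per cell cannot be told apart.

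The promoters of 5 members are shown because their genes recur below and hold the letters GTTAAT, the core of the site bound by HNF1 factors of epithelial cells, on either strand. Each runs from 250 bases before to 50 bases after the gene's start, 5′ to 3′ on the gene's strand, from RefSeq on GRCh38.p14. Capitals mark the letters, read as ATTAAC where they lie on the opposite strand. KRT20 lies at chr17:40885193-40885492 on the minus strand, PPARG at chr3:12287118-12287417 on the plus strand, F2RL1 at chr5:76818780-76819079 on the plus strand, LYPD6B at chr2:149077272-149077571 on the plus strand and TMEM156 at chr4:39032360-39032659 on the minus strand.
KRT20: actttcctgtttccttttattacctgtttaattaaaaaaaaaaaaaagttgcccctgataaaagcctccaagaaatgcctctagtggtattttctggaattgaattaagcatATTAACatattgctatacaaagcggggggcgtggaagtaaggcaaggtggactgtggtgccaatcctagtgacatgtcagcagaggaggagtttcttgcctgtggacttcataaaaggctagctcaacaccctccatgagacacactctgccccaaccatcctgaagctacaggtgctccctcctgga
PPARG: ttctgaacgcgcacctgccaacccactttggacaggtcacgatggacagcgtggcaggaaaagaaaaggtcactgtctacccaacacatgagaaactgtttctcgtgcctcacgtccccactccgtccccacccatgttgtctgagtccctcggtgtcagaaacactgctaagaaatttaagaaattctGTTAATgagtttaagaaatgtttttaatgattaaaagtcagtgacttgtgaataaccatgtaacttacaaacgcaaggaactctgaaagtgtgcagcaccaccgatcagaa
F2RL1: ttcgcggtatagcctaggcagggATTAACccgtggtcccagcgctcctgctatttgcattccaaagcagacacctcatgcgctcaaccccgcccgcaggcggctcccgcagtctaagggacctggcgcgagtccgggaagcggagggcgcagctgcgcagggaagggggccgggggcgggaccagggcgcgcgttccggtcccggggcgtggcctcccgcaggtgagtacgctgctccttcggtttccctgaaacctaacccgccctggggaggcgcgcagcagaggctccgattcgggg
LYPD6B: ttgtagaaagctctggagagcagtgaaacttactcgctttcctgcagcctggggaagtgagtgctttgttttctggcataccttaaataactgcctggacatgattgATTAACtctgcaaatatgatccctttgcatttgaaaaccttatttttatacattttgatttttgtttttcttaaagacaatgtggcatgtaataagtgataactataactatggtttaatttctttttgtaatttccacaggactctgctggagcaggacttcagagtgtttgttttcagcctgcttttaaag
TMEM156: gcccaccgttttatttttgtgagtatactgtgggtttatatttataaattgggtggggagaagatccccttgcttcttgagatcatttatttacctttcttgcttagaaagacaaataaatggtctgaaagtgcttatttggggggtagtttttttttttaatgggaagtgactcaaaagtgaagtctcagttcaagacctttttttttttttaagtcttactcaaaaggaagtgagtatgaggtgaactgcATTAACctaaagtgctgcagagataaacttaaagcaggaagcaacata

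The table held a promoter for 346 members. GTTAAT on either strand was in 31 of them, or 8.96%, against 3.58% of 10380 promoters of the tested protein-coding genes and 6.89% of all 27305 promoters in the table. AGATAA, the core of GATA sites, was in 8.67% of member promoters and 4.87% of tested promoters. TATAAA was in 8.38% and 5.74%. GGGCGG, the GC box, went the other way, with 61.3% of member promoters and 70.0% of tested ones. Letters of interferon response and NF-κB sites were TTTC followed by 2 free bases and TTTC, in 3.18% and 2.86%, and GGG followed by 2 free bases and TTTCC, in 1.73% and 2.22%. CCAAT was in 41.6% and 36.7%, and TGANTCA, the letters of AP-1 sites, in 6.36% and 4.58%, while 7.76% of all promoters held TGANTCA. AAAGTCCA of HNF4 was in 0.289% and 0.626%, CTTTGAT of TCF/LEF in 1.73% and 1.42%, and TGACGTCA of CREB in 1.45% and 3.19%. TGACNNNGC, the antioxidant response element, was added after the members had been seen and was in 14.7% and 15.1%. The median GC content was 64.7% and 65.3%. A match is a description of letters in this window, not a site.

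Members covered a wide range of levels. Their mean TPM over the 24 h references ran from 1.12 to 4695 with a median of 12.7. It was under 3 for 52 members and 100 or more for 33. D had a median of -1.40 in supernatant 1/2 and -1.46 in the combination, and 53 members had a D of -2 or less in both. Together the members took 1.90% to 1.92% of TPM in the 24 h references, 0.642% in supernatant 1/2 and 0.612% in the combination. D was -1 or less in 770 genes in supernatant 1/2 and 1042 in the combination, or 6.5% and 8.8% of the 11840 protein-coding genes expressed highly enough to meet the condition, and 4.22% met it in both. The 500 genes are 64.9% of the supernatant list and 48.0% of the combination list. The members just inside the threshold were TM7SF2, SLC25A40 and MYO1D, with the higher of their 2 D values at -1.001 each. TGFBI, ACYP1 and TBC1D8 stood just outside it, at -0.999, -0.998 and -0.997. In genome order, 75 members fell into 33 groups spaced by at most 100 kb. Among them were the AKR1C genes on chromosome 10, the protease-activated receptors on chromosome 5, ALDH3A1 with ALDH3A2 on chromosome 17, and HOXB5 with HOXB6. The share of eligible genes spaced in this way was not counted, so the groups are a description and not a trait of the members.

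TPM depends on the effective transcript length that Salmon assigned, which shifted between libraries for some members. The effective length moved by more than 0.5 on the log2 scale in 1 or both stimuli for 165 members. CPM is counts scaled to the library's total without length. On log2(CPM + 0.5), where the pseudocount differs from that of D as well as the length, 306 members had a difference of -1 or less in both, and 43 had one above -0.5 in 1 or both. On log2(CPM + 1) with TMM scaling the rule chose 396 genes, 278 of them members. ZBTB43 and DCLRE1C are among those 43: their CPM was higher in both stimuli, by 1.35 and 1.33 for ZBTB43 on the log2 scale. For 69 members the 3 references of 24 h differed by more than 2-fold in TPM. NRG4, an EGF-family ligand, had 5.75, 42.7 and 20.5 TPM in the references, 0.165 in supernatant 1/2 and 0.875 in the combination, and 33.4 TPM in 10 ng/ml TNFα, so its 24 h level is uncertain. The tests below rest on counts with no correction for length, so a shift in effective length can move them too. For ZBTB43 the effective length was higher by 3.27 in supernatant 1/2 and 2.97 in the combination on the log2 scale. The part of this in its counts was not tested.

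Members with the lowest D at 24 h are described first. AKR1B10, an aldo-keto reductase that reduces retinal and lipid aldehydes, had 109.6, 96.9 and 97.7 TPM in the references, 1.09 in supernatant 1/2 and 1.41 in the combination at 24 h. With single cytokines it had 19.6 TPM in 10 ng/ml TNFα and 18.9 in 100 ng/ml IFNγ, between the references and the strong stimuli. At 12 h, in libraries the rule did not use, its log2 fold change against the references was -2.23 ± 0.13 in supernatant 1/2 (adjusted p = 4.24e-10) and -2.19 ± 0.14 in the combination (adjusted p = 1.21e-09), each ± SE from edgeR.

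FABP4, a carrier of fatty acids best known from adipocytes, had 144, 143 and 136 TPM in the references, 3.94 in supernatant 1/2 and 1.09 in the combination at 24 h. The weaker treatments lay between: 0.1 ng/ml TNFα at 61.2 TPM, and the others from 10.4 to 38.8 TPM, all below every reference. Its 12 h fold change was -1.42 ± 0.27 (adjusted p = 0.00283) in supernatant 1/2 and -1.55 ± 0.29 (adjusted p = 0.00295) in the combination. ADH1C, an alcohol dehydrogenase that also oxidizes retinol, had 29.7, 25.6 and 25.6 TPM in the references, 0.229 in supernatant 1/2 and 0.0690 in the combination. It fell by 12 h in both stimuli, with -3.33 ± 0.58 (adjusted p = 6.15e-04) and -4.71 ± 0.76 (adjusted p = 3.78e-04). AGR2, an endoplasmic reticulum protein needed for mucin folding, had 153, 152 and 149.8 TPM in the references, 8.40 in supernatant 1/2 and 8.98 in the combination, the references lying within 3 TPM of each other. Its 12 h fold changes were -1.45 ± 0.15 (adjusted p = 3.69e-07) and -1.22 ± 0.16 (adjusted p = 5.26e-06).

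SGK2, a serine/threonine kinase related to SGK1, was already called lower at 6 h, with -1.66 ± 0.16 in supernatant 1/2 and -2.02 ± 0.16 in the combination, and at 12 h with -3.73 ± 0.19 and -4.08 ± 0.22. At 24 h it had 44.005, 39.8 and 38.9 TPM in the references, 0.778 in supernatant 1/2 and 0.666 in the combination. The adhesion receptor ADGRF1 and the caveolar coat protein CAVIN2 also fell at both 6 and 12 h. ADGRF1 had 48.03, 42.4 and 47.6 TPM in the references, 2.91 in supernatant 1/2 and 2.14 in the combination at 24 h, and CAVIN2 had 43.5, 41.3 and 40.1 TPM in the references, 1.95 in supernatant 1/2 and 4.59 in the combination. KRT80, an epithelial keratin, had 15.3, 15.7 and 15.7 TPM in the references, 1.63 in supernatant 1/2 and 1.25 in the combination, the references being within 1 TPM of each other. Its 12 h change was -2.53 ± 0.11 in supernatant 1/2 and -2.73 ± 0.13 in the combination. The single cytokines at their highest dose gave -1.201 ± 0.10 for TNFα and -1.27 ± 0.10 for IFNγ at 12 h, and the difference of the pair was 0.07 ± 0.13 (adjusted p = 0.815).

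The other members among the 20 lowest were of mixed function. ALDH3A1, an aldehyde dehydrogenase of the cornea and stomach, had 15.9, 12.8 and 13.1 TPM in the references, 0.602 in supernatant 1/2 and 0.389 in the combination at 24 h and -0.97 ± 0.25 and -0.76 ± 0.26 at 12 h. PSCA, a GPI-anchored surface antigen, had 68.4, 67.2 and 67.6 TPM in the references, 8.92 in supernatant 1/2 and 5.75 in the combination, the references within 2 TPM of each other, and -1.11 ± 0.17 and -1.05 ± 0.18 at 12 h. ATOH8, a basic helix-loop-helix factor, had 18.5, 17.8 and 15.9 TPM in the references, 2.18 in supernatant 1/2 and 0.570 in the combination. Its 12 h changes were -2.71 ± 0.30 and -2.50 ± 0.32. ZSCAN31 and ZNF704, zinc finger proteins, were called lower in both stimuli at 6 h and 12 h, and so were OTULINL and CCDC198. CCDC198 had 24.4, 28.5 and 23.3 TPM in the references, 0.994 in supernatant 1/2 and 4.48 in the combination at 24 h, and in a direct comparison at 12 h it was lower in supernatant 1/2 than in the combination (-1.32 ± 0.27, adjusted p = 0.00713). METTL7A had 9.38, 9.09 and 5.70 TPM in the references, 0.0724 in supernatant 1/2 and 0.0327 in the combination, so its 24 h values in the strong stimuli were close to 0.

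**Figure D1:**
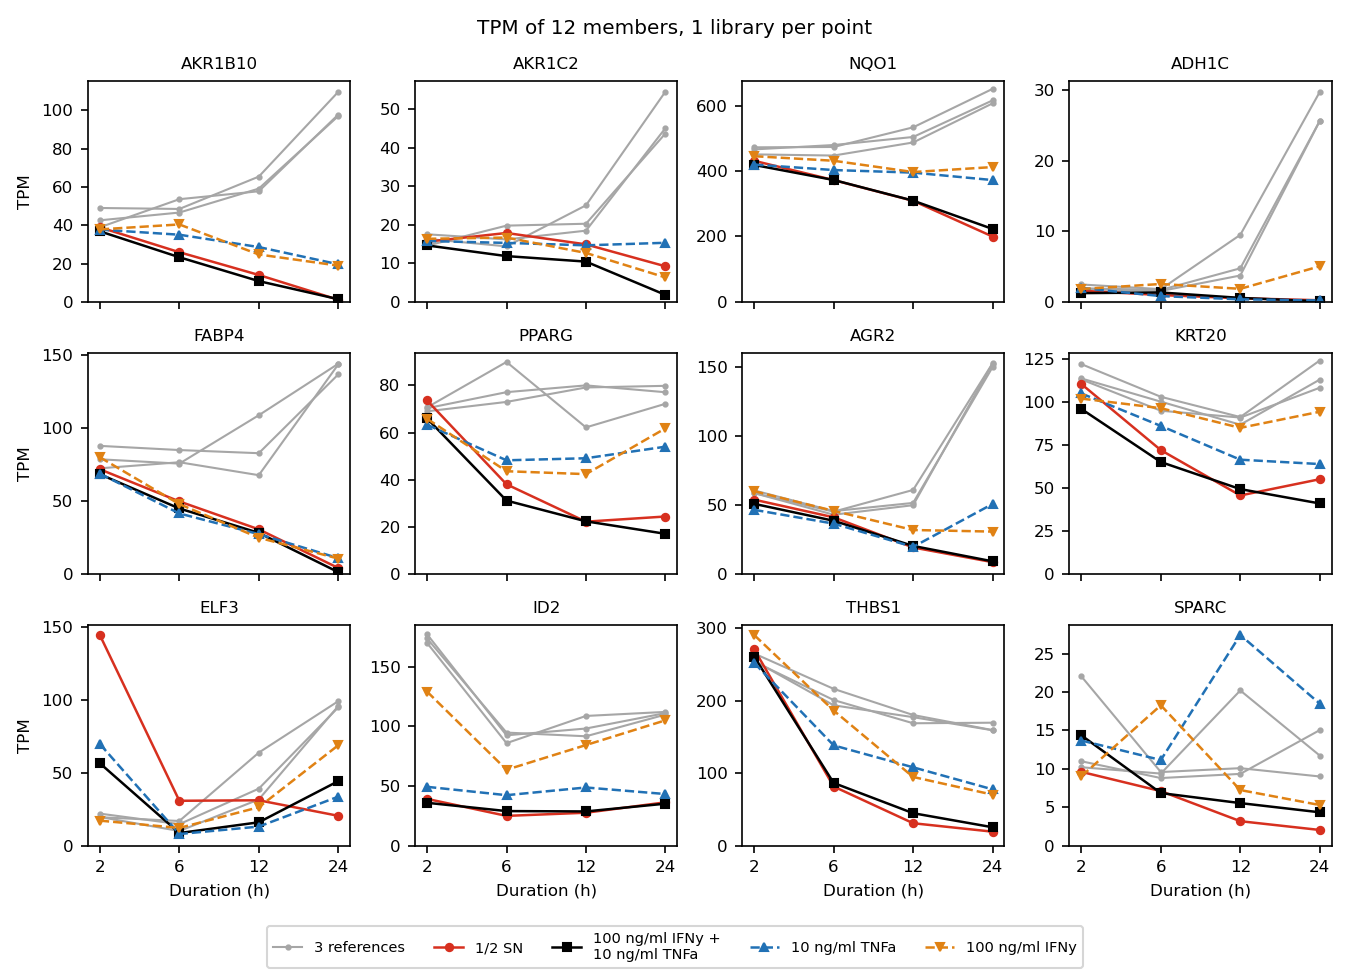
TPM (vertical axis, from 0) of 12 members against duration in h, 1 library per point, with the 3 references in grey. AKR1B10, ADH1C, FABP4 and AGR2 were higher at 24 h than at 12 h in all 3 references while both strong stimuli stood lower at 24 h than at 12 h, and ID2 was already apart at 2 h.

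The references had a course of their own. Between 12 and 24 h the members' log2(TPM + 1) in the references was higher by a median of 0.50, where the median was 0.04 over all 11840 eligible genes, and 382 of 448 members were higher at 24 h. Over the same 12 hours the median change was -0.17 in supernatant 1/2 and -0.10 in the combination, where 279 and 262 members were lower at 24 h. Set against the references of 12 h in place of 24 h, supernatant 1/2 at 24 h had a median of -0.97 and the combination -1.08. These values rest on libraries that chose the members and are a description. ADH1C shows the pattern: the references had 9.48, 3.73 and 4.75 TPM at 12 h and 29.7, 25.6 and 25.6 TPM at 24 h. THBS1 does not: its references had 180.3, 169 and 177 TPM at 12 h and 159, 169.6 and 159 TPM at 24 h. Among the references of 12 h and 2 h, which the rule did not use, 97 members were called higher and 34 lower at 12 h, where 9.12% and 10.9% of all tested genes were called. DESeq2 called 16 and 11, where it called 1.79% and 4.01% of the genes to which it gave an adjusted p. Leaving out the 2 h unstimulated library gave 53 higher and 22 lower, leaving out the 2 h library of 0.01 ng/ml IFNγ gave 56 higher, and leaving out the 12 h unstimulated library gave 55 higher.

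Members were then tested at 2, 6 and 12 h against the references of the same duration. Of 448 members 430 passed the count filter, and 18 were too low to test. At 12 h, 312 of 430 were called lower in supernatant 1/2 and 2 higher, with a median log2 fold change of -0.89. Over all 14490 genes tested 20.3% were called lower and 20.9% higher, and the median was -0.03. In the combination 334 were called lower and 2 higher, with a median of -1.08 where 19.1% of all genes were called lower, 21% higher, and the median was -0.03. DESeq2 called 178 and 205 members lower, and 7.2% and 6.96% of all genes with an adjusted p. At 6 h the calls were 191 in supernatant 1/2 (12.3% of all genes) and 233 in the combination (13%), and 94 and 106 by DESeq2 (3.27% and 3.59%). At 2 h they were 49 (3.35%) and 42 (2.82%), and 15 and 14 by DESeq2 (0.669% and 0.559%). The supernatant and combination comparisons share their reference libraries.

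**Figure D2:**
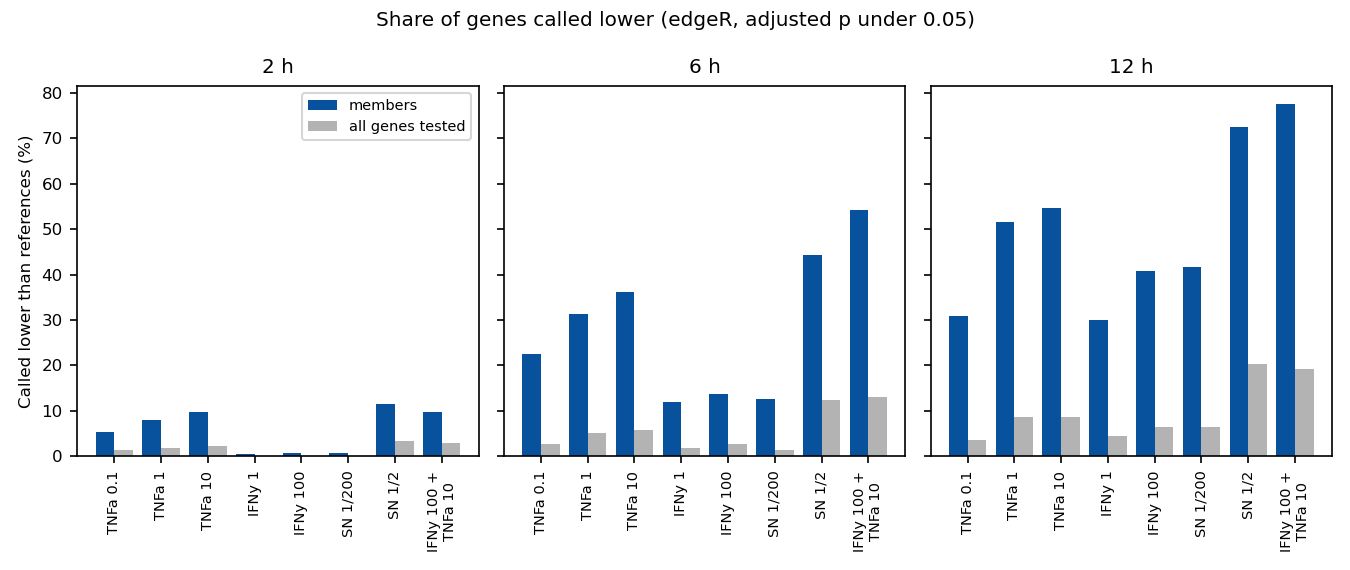
Percent of genes called lower than the references (vertical axis, from 0) by treatment at 2, 6 and 12 h, for the 430 tested members and all 14490 tested genes. At 12 h supernatant 1/2 called 72.6% of members and the combination 77.7%, against about 20% of all genes.

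**Figure D3:**
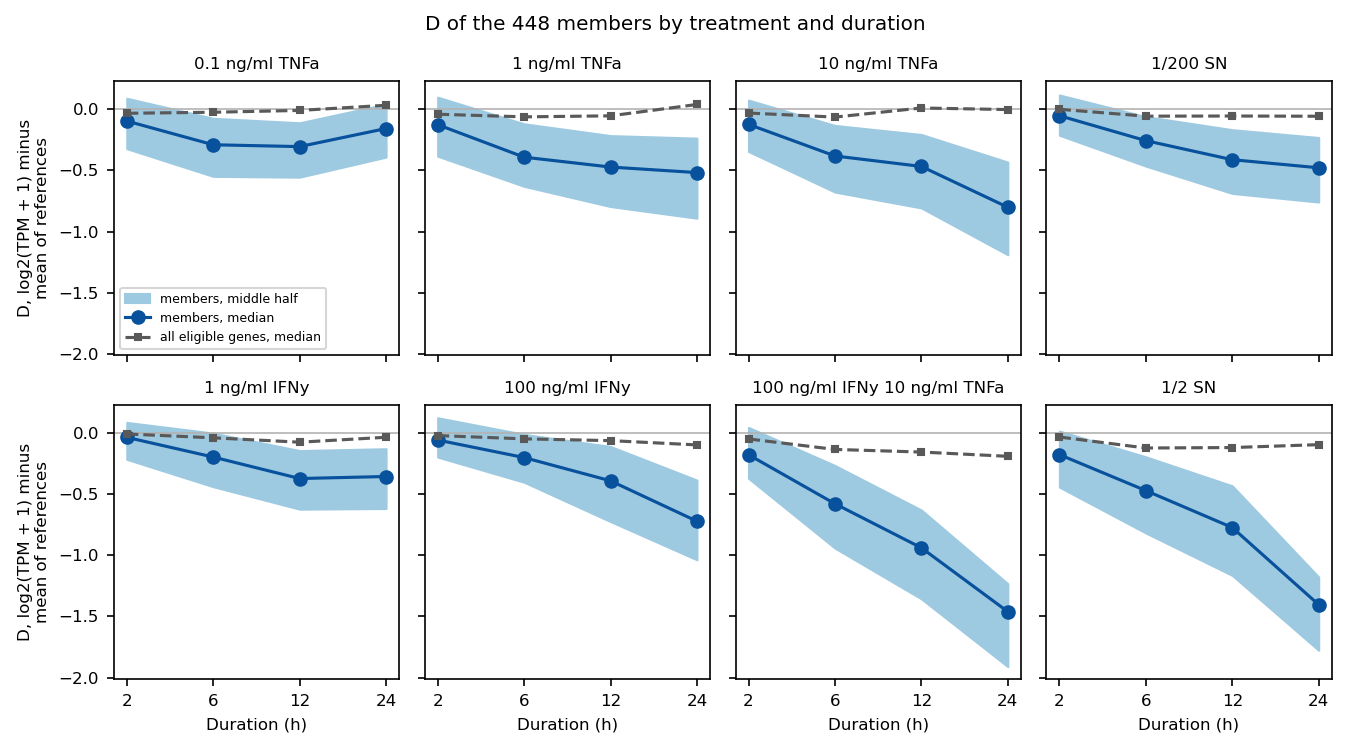
D (vertical axis, log2 units) of the 448 members against duration in h for 8 treatments, as median and interquartile range, beside the median of the 11840 eligible genes. The 24 h points of supernatant 1/2 and the combination were fixed by the rule, and the other 24 h points share the references it used.

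In supernatant 1/2, 49 members were first called lower at 2 h, 151 at 6 h and 126 at 12 h, and 104 were called at none of these. These are 11.4%, 35.1%, 29.3% and 24.2% of the 430, beside 3.35%, 10.46%, 11.2% and 74.9% of all 14490 genes. In the combination the counts were 42, 195, 103 and 90, which are 9.77%, 45.3%, 24.0% and 20.9% of members beside 2.82%, 11.3%, 9.28% and 76.6% of all genes. At 12 h, 130 members in supernatant 1/2 and 112 in the combination were called lower by less than 1 on the log2 scale, 30.2% and 26.05% of members beside 16.6% and 14.3% of all genes.

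The members called at 2 h that are named here were chosen after their values were seen. ID2, an inhibitor of basic helix-loop-helix factors that BMP signalling induces, had 170.0, 174 and 177 TPM in the references, 39.2 in supernatant 1/2 and 35.9 in the combination at 2 h. Its 2 h fold change was -2.27 ± 0.08 (adjusted p = 1.16e-13) in supernatant 1/2 and -2.08 ± 0.08 (adjusted p = 3.21e-13) in the combination. It was -1.62 ± 0.08 and -1.57 ± 0.08 at 12 h. BMP4, a BMP ligand, also fell at 2 h, with -1.40 ± 0.19 and -1.56 ± 0.20. SPRY1, a feedback inhibitor of receptor tyrosine kinase signalling, changed by -1.55 ± 0.17 and -1.99 ± 0.19. KLF2 and FOXQ1, both transcription factors, were called lower at 2 h in both stimuli. HES1, the Notch target repressor, was called in supernatant 1/2 at 2 h with -1.24 ± 0.17 (adjusted p = 3.17e-05), and in the combination had -0.42 ± 0.15 (adjusted p = 0.108). The difference between the stimuli at 2 h was not tested.

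Some members were called higher at 2 h and stood low against the references of 24 h. ELF3, an epithelial ETS factor, had 19.4, 19.6 and 21.9 TPM in the references, 144 in supernatant 1/2 and 56.3 in the combination at 2 h, and rose with 2.80 ± 0.27 (adjusted p = 7.51e-04) and 1.60 ± 0.31 (adjusted p = 0.0237). At 24 h it had 98.9, 95.5 and 94.6 TPM in the references, 20.4 in supernatant 1/2 and 44.1 in the combination. The references of ELF3 were thus higher at 24 h than at 2 h. Its 24 h level lay within the 2 h references in supernatant 1/2 and above them in the combination. THBS1 and SERPINA5 were also called higher at 2 h in both stimuli, THBS1 by 0.30 ± 0.05 and 0.18 ± 0.05. In all 7 members were called higher in supernatant 1/2 and 6 in the combination, where 7.44% and 6.08% of all genes were. These are 1.63% and 1.40% of the members tested, below the shares of all genes.

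Transcription regulators of epithelial identity and lipid metabolism were among the members. For this and the lists below, 20.3% of all tested genes were called lower and 20.9% higher in supernatant 1/2 at 12 h. The shares were 19.1% and 21% in the combination. Of 102 regulators fixed as a list 16 were members; of 84 tested, 31 were called lower and 18 higher in supernatant 1/2 at 12 h, and 34 and 17 in the combination, with medians of -0.11 and -0.34. PPARG, the receptor that drives fat storage genes, had 72.2, 77.1 and 79.8 TPM in the references, 24.3 in supernatant 1/2 and 16.97 in the combination at 24 h. Its 12 h change was -1.204 ± 0.08 (adjusted p = 1.25e-09) and -1.36 ± 0.09 (adjusted p = 6.81e-10). NR2F2, an orphan nuclear receptor, had -1.18 ± 0.07 and -1.41 ± 0.07 at 12 h. FOXA1, a pioneer factor of epithelia, had -1.10 ± 0.22 and -1.48 ± 0.25, and THRB, the thyroid hormone receptor, -1.41 ± 0.17 and -1.83 ± 0.19. HOXB6 had -0.79 ± 0.12 and -0.50 ± 0.12. Other listed factors moved the opposite way: KLF4 rose by 1.95 in supernatant 1/2 and 1.69 in the combination.

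Of 44 Wnt pathway genes 31 were tested, and 16 were called lower and 7 higher in supernatant 1/2 and 16 and 5 in the combination, with medians of -0.43 and -0.69, where 20.3% and 19.1% of all genes were called lower. LGR4, a receptor for R-spondin that sustains Wnt signalling, had 125, 127 and 113 TPM in the references, 18.1 in supernatant 1/2 and 22.1 in the combination at 24 h. It fell with -1.54 ± 0.14 and -1.74 ± 0.14 at 12 h. TCF7L2, a nuclear effector of the pathway, had -0.71 ± 0.09 and -0.79 ± 0.10. The Wnt receptor FZD7 changed by -1.18 ± 0.08 and -1.82 ± 0.09, and was lower in the combination than in supernatant 1/2 (direct comparison, adjusted p = 0.00191). LRP5, its co-receptor, missed the threshold in supernatant 1/2 with -0.54 ± 0.20 (adjusted p = 0.0736) and passed in the combination with -0.80 ± 0.21 (adjusted p = 0.0223). Opposite directions occurred too: FZD5 rose by 0.95 and 0.98. In the BMP and TGFβ list of 35 genes, 11 of 32 tested fell and 8 rose in supernatant 1/2, and 14 and 7 in the combination, with medians of -0.15 and -0.19. TGFB2, a TGFβ ligand, had 52.3, 51.3 and 49.9 TPM in the references, 11.2 in supernatant 1/2 and 8.17 in the combination and changed by -2.11 ± 0.10 and -1.93 ± 0.10 at 12 h, while TGFB1 rose by 0.71 and 0.85. SMAD6, an inhibitor of BMP signalling, had -0.66 ± 0.17 and -1.57 ± 0.20.

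Lipid and drug metabolism enzymes had 24 members of 106 genes, the most of the fixed lists. Of 78 tested, 32 were called lower and 13 higher in supernatant 1/2 at 12 h, with a median of -0.34. In the combination the counts were 35 and 9 with a median of -0.53. Over all genes 20.3% were called lower and 20.9% higher in supernatant 1/2, and 19.1% and 21% in the combination. CYP1B1, a cytochrome P450, had 113, 109 and 99.2 TPM in the references, 36.4 in supernatant 1/2 and 41.7 in the combination at 24 h and -1.81 ± 0.13 and -0.60 ± 0.12 at 12 h, lower in supernatant 1/2 than in the combination (adjusted p = 0.00281). EPHX1, an epoxide hydrolase, had 76.5, 70.5 and 74.4 TPM in the references, 24.3 in supernatant 1/2 and 19.3 in the combination at 24 h. A list of NRF2 target genes, the antioxidant set, was chosen after the members had been seen, so its direction is no independent evidence. Of its 33 genes 13 were members; 14 were called lower and 8 higher in supernatant 1/2 at 12 h, and 19 and 6 in the combination, with medians of -0.16 and -0.31. NQO1, a quinone reductase, had 651, 607 and 616 TPM in the references, 199.6 in supernatant 1/2 and 223 in the combination, and FTL, the ferritin light chain and the most abundant member, had 4677, 4604 and 4806 TPM in the references, 1824 in supernatant 1/2 and 1848 in the combination. FTL had at 12 h -0.21 ± 0.05 and -0.30 ± 0.05. HMOX1, heme oxygenase, fell at 12 h in the combination, with -0.57 ± 0.12 (adjusted p = 8.10e-04) and had in supernatant 1/2 -0.04 ± 0.10 (adjusted p = 0.803), and the 2 stimuli differed in a direct comparison (adjusted p = 0.0316). Other NRF2 targets moved the other way: PGD, of the pentose phosphate pathway, rose by 0.68 and 0.80, and GCLM, of glutathione synthesis, rose by 0.80 and 0.70. For HMOX1 the order of the stimuli was reversed at 2 h, with -0.39 ± 0.12 in supernatant 1/2 and -0.09 ± 0.11 in the combination. That 2 h difference was not tested. AKR1C1, AKR1C2 and AKR1C3 are near-identical copies whose reads can be split between them, so their separate values are uncertain. AKR1C2 had 54.5, 45.02 and 43.6 TPM in the references, 9.22 in supernatant 1/2 and 1.81 in the combination.

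Retinoid metabolism, a list chosen later, had 9 members of 30 genes; 8 of 21 tested were called lower in supernatant 1/2 and 10 in the combination, with 4 and 1 higher and medians of -0.51 and -0.89. RDH10 and DHRS3, enzymes between retinol and retinal, had -1.30 ± 0.13 and -2.27 ± 0.16 for RDH10, and -1.85 ± 0.51 and -2.96 ± 0.65 for DHRS3. RDH10 was lower in the combination than in supernatant 1/2 (adjusted p = 0.0111). Mucin and glycosylation genes, also listed later, had 12 members of 37, among them AGR2, MUC5AC and ST6GALNAC1. Of 34 tested, 10 were called lower and 10 higher in supernatant 1/2, and 13 and 10 in the combination, with medians of -0.09 and -0.14. Beside both lists, 20.3% of all genes were called lower and 20.9% higher in supernatant 1/2, and 19.1% and 21% in the combination. Of the 12 gastrointestinal markers 1 is a member, KRT20, a keratin of that epithelium. It had 124, 113 and 108 TPM in the references, 55.1 in supernatant 1/2 and 40.97 in the combination at 24 h and changed by -0.89 ± 0.06 and -0.77 ± 0.07 at 12 h.

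Protease-activated receptors, which thrombin and trypsin-like proteases cleave, were members with THBS1, a matrix glycoprotein. THBS1 had 159, 169.6 and 159 TPM in the references, 19.2 in supernatant 1/2 and 25.3 in the combination at 24 h and -2.77 ± 0.07 (adjusted p = 2.44e-16) in supernatant 1/2 and -2.03 ± 0.06 (adjusted p = 9.62e-15) in the combination at 12 h. F2R, the thrombin receptor, had 102, 105 and 102 TPM in the references, 26.03 in supernatant 1/2 and 18.5 in the combination, and F2RL1, the trypsin-cleaved receptor, had 70.3, 61.2 and 70.01 TPM in the references, 7.38 in supernatant 1/2 and 11.7 in the combination. Their 12 h changes in supernatant 1/2 were -2.13 ± 0.07 for F2R and -3.22 ± 0.09 for F2RL1, and in the combination -2.23 ± 0.07 and -2.08 ± 0.08. F2RL1 was lower in supernatant 1/2 than in the combination, with a difference of -1.14 ± 0.11 (adjusted p = 6.70e-06), and THBS1 with -0.74 ± 0.07 (adjusted p = 6.40e-06). F2RL2 had -1.63 ± 0.16 and -1.11 ± 0.16 at 12 h. In all, 10 members were called lower and 29 higher in supernatant 1/2 than in the combination. These are 2.33% and 6.74% of the members tested, where 3.18% and 2.59% of all genes were called. The share on the lower side was below that of all genes and is not a result about the members. DESeq2 called 3 and 2 of the 135 members to which it gave an adjusted p (1.25% and 0.441% of all genes with one).

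The single cytokines each lowered part of the set. At 12 h, 235 of 430 members were called lower with 10 ng/ml TNFα, where 8.57% of all genes were, and 175 with 100 ng/ml IFNγ, where 6.29% were. DESeq2 called 86 and 47 (2.14% and 1.36% of all genes with an adjusted p). The 12 h counts were 133 and 222 at 0.1 and 1 ng/ml TNFα (3.53% and 8.7% of all genes), 129 at 1 ng/ml IFNγ (4.36%) and 179 in supernatant 1/200 (6.49%). At 6 h they were 155 with 10 ng/ml TNFα (5.67%) and 59 with 100 ng/ml IFNγ (2.59%), and at 2 h 42 (2.21%) and 3 (0.069%). At 24 h the median D of all 448 members was -0.16, -0.52 and -0.80 at 0.1, 1 and 10 ng/ml TNFα, -0.36 and -0.72 at 1 and 100 ng/ml IFNγ, and -0.48 in supernatant 1/200. D was -1 or less in 29, 86 and 163 members along the TNFα doses, where 0.735%, 1.82% and 2.66% of eligible genes were. It was so in 39 and 124 members along the IFNγ doses, where 0.971% and 2.4% were, and in 56 in supernatant 1/200, where 1.3% were. These D values share the 24 h references that chose the members. The excess over eligible genes is thus partly fixed by the rule, and the values are a description. Doses were compared directly at 24 h, in libraries outside the rule. Each comparison is 1 library against 1 library. Its error comes from the references of 2, 6 and 12 h, so no spread at 24 h was measured. Of 430 members, 206 were called lower with 10 than with 0.1 ng/ml TNFα (4.25% of all genes), 8 with 10 than with 1 ng/ml (0.131%), and 71 with 100 than with 1 ng/ml IFNγ (1.09%). DESeq2 called 60, 2 and 10 (1.04%, 0.0319% and 0.426% of all genes with an adjusted p). It gave an adjusted p to 361, 395 and 135 members in these comparisons. The count of 8 rose to 29 with no filter on low counts and to 20 with all 44 libraries. Supernatant 1/200 was called lower than 1 ng/ml IFNγ in 2 members, where 0.0138% of all genes were.

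**Figure D4:**
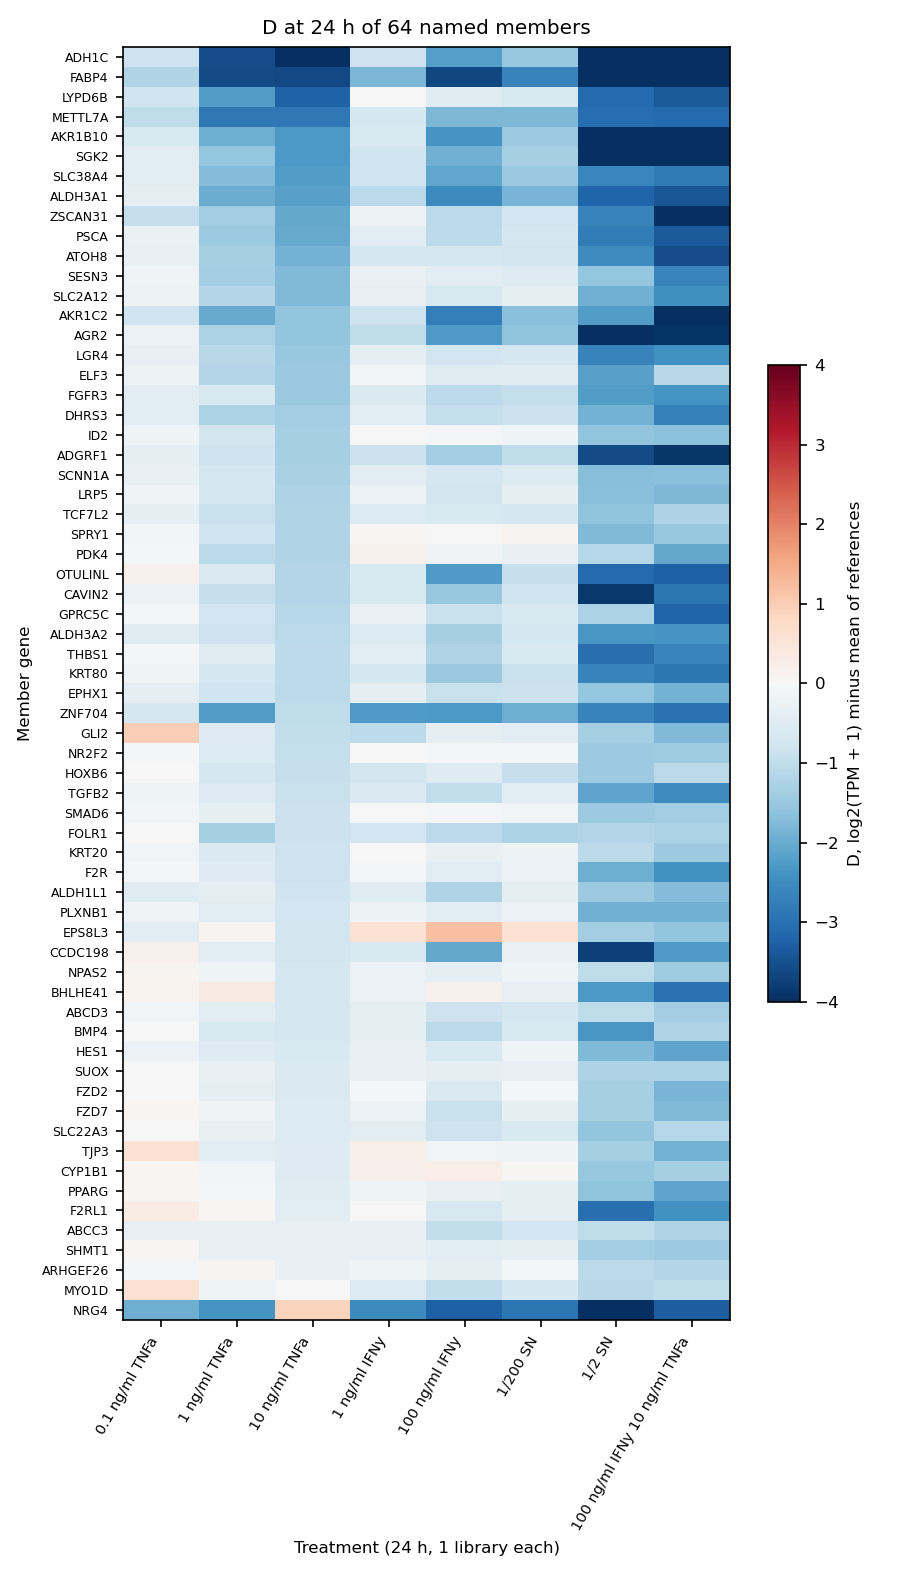
D at 24 h of 64 named members (rows, ordered by 10 ng/ml TNFα) in 8 treatments (columns), 1 library each, with blue for low and red for high. Colours stop at -4 and 4 while D ran from -6.09 to 1.21. Rows near the top are low in TNFα, IFNγ and both strong stimuli, and NRG4 and EPS8L3 are red in some single-cytokine columns.

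The effects of the cytokines at 12 h were tested for adding up on the log2 scale. In 8 members the combination was lower than the sum of the 10 ng/ml TNFα and 100 ng/ml IFNγ changes, and in 1 it was higher, where 0.421% and 0.538% of all genes were called. F2R had -0.77 ± 0.06 with TNFα, -0.91 ± 0.06 with IFNγ and -2.23 ± 0.07 with both, an interaction of -0.56 ± 0.10 (adjusted p = 0.00966). THBS1 had -0.63 ± 0.06, -0.91 ± 0.06 and -2.03 ± 0.06, an interaction of -0.49 ± 0.09 (adjusted p = 0.00704). PEG10, a gene derived from a retrotransposon, had an interaction of -0.35 ± 0.08 (adjusted p = 0.0381). HCAR1, the lactate receptor, went the other way with 1.06 ± 0.22 (adjusted p = 0.0256). The count of 8 was 3 by DESeq2, which gave an adjusted p to 86 members and called 0.411% of all genes with one. The count was 22 with no filter on low counts, 13 with all 44 libraries and 5 without the 12 h library of supernatant 1/20000.

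The single cytokines were compared directly, and members were called on both sides. This too is 1 library against 1 library, and no spread at 24 h entered its error. With 10 ng/ml TNFα against 100 ng/ml IFNγ at 24 h, 92 members were called lower with TNFα and 47 lower with IFNγ, where 11.5% and 11.7% of all genes were called. These are 21.4% and 10.9% of the members tested, so the share on the IFNγ side was near that of all genes and is not a result about the members. DESeq2 called 34 and 9, where it called 4.65% and 3.99% of all genes with an adjusted p. In the 12 h libraries of the same treatments, 85 of the 92 and 38 of the 47 had the same sign, 46 and 15 were called the same way, and none was called the opposite way. In all, 59 members were called lower with TNFα and 23 lower with IFNγ at 12 h, where 8.45% and 8.21% of all genes were. LYPD6B, of the Ly6 family of surface proteins, had 1.39 TPM with 10 ng/ml TNFα and 15.1 TPM with 100 ng/ml IFNγ, against 18.5, 22.8 and 23.3 in the references, a difference of -3.52 ± 0.31 (adjusted p = 1.07e-07). ADH1C had 0.199 and 5.03 TPM, a difference of -4.72 ± 0.83 (adjusted p = 0.00145). ID2 differed by -1.40 ± 0.09 (adjusted p = 1.11e-09), SPRY1 by -1.30 ± 0.14 and KRT20 by -0.67 ± 0.08, each lower with TNFα. ABCG2, a drug efflux transporter, had 7.86, 4.76 and 6.86 TPM in the references, 2.30 with 10 ng/ml TNFα and 19.9 with 100 ng/ml IFNγ, which is above all 3 references, and differed by -2.38 ± 0.15 (adjusted p = 1.57e-09).

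Members called lower with IFNγ than with TNFα included SPARC, a matrix protein, with 18.5 TPM under TNFα and 5.28 under IFNγ against 15.05, 9.01 and 11.7 in the references (difference 1.99 ± 0.30, adjusted p = 6.64e-05). TMEM156 had 23.9 and 5.94 TPM against 27.02, 23.05 and 21.9 (difference 1.85 ± 0.19, adjusted p = 8.35e-07). SERPINA5, a serine protease inhibitor, differed by 2.56 ± 0.32 (adjusted p = 6.69e-06), with references of 8.08, 11.3 and 5.09 TPM. TRIM16L differed by 1.82 ± 0.09 and CASTOR1 had 1.83 ± 1.07 (adjusted p = 0.298). AC087632.1 and AC120114.4, clone-named loci at the TNFα end, were listed at 0 in 1 reference each and carry no usable fold. AKR1B10, with 19.6 and 18.9 TPM, did not pass with -0.04 ± 0.17 (adjusted p = 0.916). LYPD6B and TMEM156, whose promoters are printed above, stood on opposite sides of this comparison, and both hold GTTAAT. Whether these letters go with either side was not tested.

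**Figure D5:**
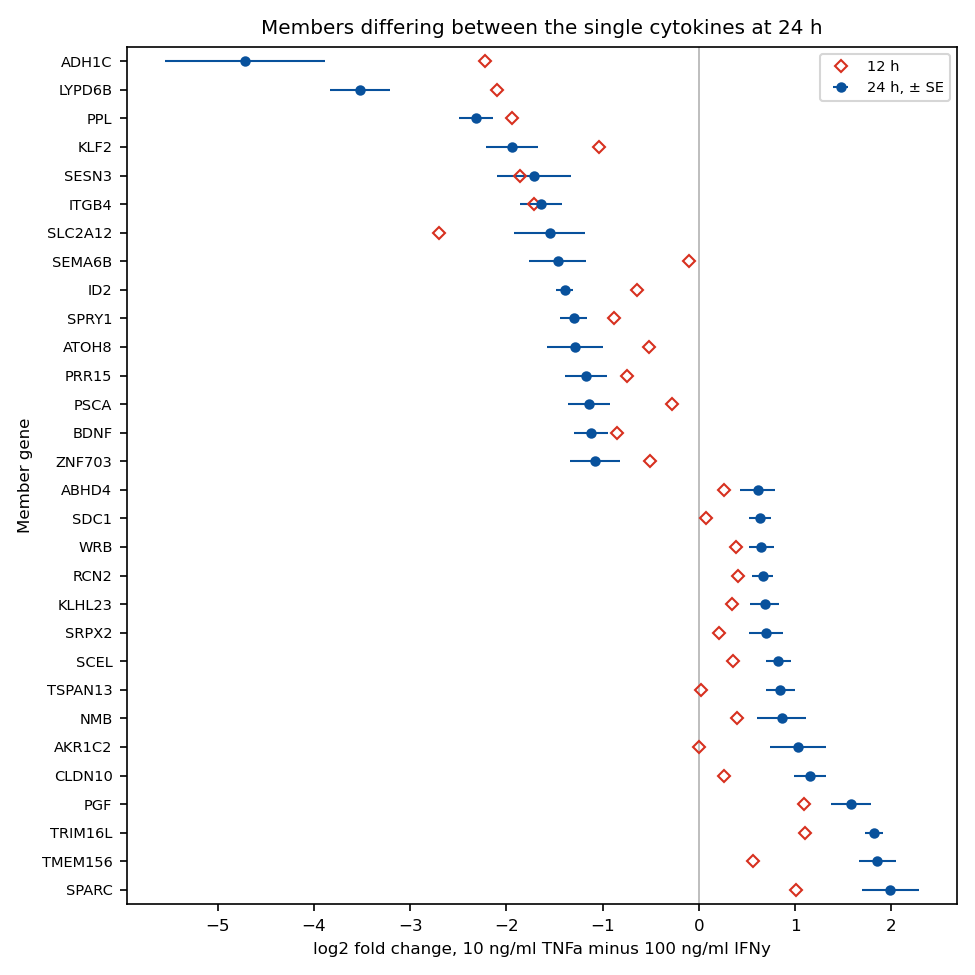
Log2 fold change of 10 ng/ml TNFα minus 100 ng/ml IFNγ (horizontal axis) for the 15 members with the lowest and the 15 with the highest 24 h value among called members with a reference TPM of 10 or more. Filled points are 24 h ± SE, open diamonds 12 h, and ADH1C and SPARC lie at the ends.

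Transporters, receptors and structural genes were called in both directions. Over all genes 20.3% were called lower and 20.9% higher in supernatant 1/2 at 12 h, and 19.1% and 21% in the combination. Of 69 transporters tested 21 were called lower and 15 higher in supernatant 1/2 at 12 h, and 30 and 13 in the combination, with 12 members and medians of -0.16 and -0.28. SLC38A4, an amino acid transporter, had 11.9, 9.57 and 9.60 TPM in the references, 0.844 in supernatant 1/2 and 0.586 in the combination at 24 h and -2.79 ± 0.24 and -3.18 ± 0.27 at 12 h. ABCC3, an efflux pump, had -0.06 ± 0.08 (adjusted p = 0.55) in supernatant 1/2 and -0.53 ± 0.08 (adjusted p = 4.04e-05) in the combination. Of 67 channels and receptors 20 were called lower and 17 higher, and 20 and 15 in the combination, with medians of 0.09 and -0.22. SCNN1A, a subunit of the epithelial sodium channel, had 172, 178 and 195 TPM in the references, 55.6 in supernatant 1/2 and 56.03 in the combination at 24 h, and its 12 h changes were -0.72 ± 0.09 and -1.05 ± 0.10. Of 64 cytoskeleton, junction and polarity genes 24 were called lower and 12 higher, and 25 and 11 in the combination, with medians of -0.23 and -0.31. ITGB4, the integrin of hemidesmosomes, had 366, 379 and 384 TPM in the references, 130.1 in supernatant 1/2 and 118 in the combination at 24 h and -1.34 ± 0.19 and -1.17 ± 0.19 at 12 h. The list of protease-activated receptors and matrix genes, chosen later around members, had 16 members of 25 genes, with 13 of 23 tested called lower and 7 higher in supernatant 1/2 and 12 and 6 in the combination.

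Nuclear receptor and lipid genes of the adipocyte type, chosen later, had 10 members of 30, with 9 of 25 tested called lower and 4 higher in supernatant 1/2, and 11 and 4 in the combination. NR1H3, the oxysterol receptor LXRα, had 98.6, 114 and 114 TPM in the references, 22.7 in supernatant 1/2 and 14.8 in the combination at 24 h and -1.45 ± 0.23 and -1.46 ± 0.25 at 12 h. FASN, fatty acid synthase, had 118, 136 and 112 TPM in the references, 27.8 in supernatant 1/2 and 47.8 in the combination at 24 h and at 12 h -0.06 ± 0.27 (adjusted p = 0.887) and -0.36 ± 0.28 (adjusted p = 0.369). Of 48 peroxisome and fatty acid oxidation genes, also listed later, 11 were called lower and 12 higher in supernatant 1/2, and 13 and 7 in the combination. Over all genes 20.3% were called lower and 20.9% higher in supernatant 1/2, and 19.1% and 21% in the combination. The supernatant counts of the peroxisome list were near these shares and are not a result about that list. CAT, the peroxide-degrading catalase, had -0.63 ± 0.09 and -1.07 ± 0.10. Of 52 amino acid and one-carbon enzymes 14 were called lower and 9 higher, and 20 and 9 in the combination, with 3 members. SHMT1, of serine and glycine metabolism, had -1.14 ± 0.10 and -1.07 ± 0.11.

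The smaller signalling lists held few members, and their counts are a description beside the shares of all genes given above. Of 18 clock genes 3 were called lower and 6 higher in supernatant 1/2 and 5 and 3 in the combination. NPAS2, a partner of BMAL1, had 184, 184 and 168 TPM in the references, 87.03 in supernatant 1/2 and 66.1 in the combination at 24 h and -0.85 ± 0.07 and -1.04 ± 0.07 at 12 h. Growth factor and Ras feedback genes had 11 lower and 8 higher of 31, and 15 and 10 in the combination, with SPRY1 and FGFR3 as members. FOXO and nutrient response genes had 4 lower and 8 higher of 22, and 5 and 9, and Notch and Hedgehog genes 5 and 3 of 19, and 11 and 2. Semaphorins, plexins and ephrin receptors, chosen later, had 7 lower and 10 higher of 30, and 10 and 9. Among marker lists, ovarian and epithelial genes had 4 of 9 called lower in each stimulus, with 0 and 1 higher. Gastrointestinal genes had 1 of 6 lower in each, the 1 T-cell gene tested was not called, and 1 of 2 fibroblast genes was higher in each.

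Cell-cycle genes, which the rule left out, fell too: of 267 tested in the extended cell-cycle list, 207 were called lower in supernatant 1/2 at 12 h and 199 in the combination, with 4 and 6 higher. Their part in the members' results was not tested, and 12 members tied to the cell cycle by later choice had 6 of 9 tested called lower in each stimulus. As a check of the labels, all 18 interferon and NF-κB genes tested were called higher in both stimuli. Of 16 apoptosis and survival genes, 12 were called higher and 1 lower in supernatant 1/2 and 13 and 1 in the combination.

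Some members need care as single genes. The 5 with the lowest fitted 6 h change, SIK1, AC139530.2, CXXC4, AL133352.1 and AL157935.2, were low counts with adjusted p above 0.05, and 0 of them were called at 6 h. Reads of near-identical copies, in a later list of 24 members, may be split by the counting. The names of this list cover 26 entries, since MATR3 and TBCE each have a further entry that is not a member. Of 22 entries tested, these non-members included, 12 were called lower and 1 higher in supernatant 1/2. In the combination the counts were 15 and 0. The non-member entry of MATR3 is among the 12. A further list holds 12 members that are readthrough or clone-named loci, of which 1 was called lower in supernatant 1/2 and 0 in the combination. ZBTB43 and MATR3 were called higher at 12 h in supernatant 1/2, and ZBTB43 and DCLRE1C in the combination, although the rule chose them as low in TPM at 24 h. The member entry of MATR3, at 13.9 TPM in the 24 h references, had 2.94 ± 0.91 in supernatant 1/2 and -3.80 ± 2.78 in the combination. These errors are too wide to give that entry a level. The non-member entry of MATR3, at 222.6 TPM, had a D of -0.43 and -0.44. Its 12 h changes were -0.57 ± 0.06 in supernatant 1/2 and -0.03 ± 0.06 in the combination.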

How the data were processed

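RNA-seq of OVCAR5 cells was read from 44 deposited per-gene tables. The authors deposited Salmon expected counts and TPM per gene; per the submitters' processing notes the build was GRCh38, with STAR and Salmon among the tools, versions and settings not given in the sources used here. Expected counts were rounded to whole numbers.

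Members and lists were chosen with earlier results of these data known. Gene types came from GENCODE v29. Members were tested with edgeR 4.0.16 (R 4.3.3, limma 3.58.1): quasi-likelihood F test, robust, TMM, filterByExpr (minimum count 10, minimum total 15), Benjamini-Hochberg adjustment over 14490 genes, called at an adjusted p under 0.05. The fit used the 39 libraries outside the rule, with 1 mean per treatment and duration and 1 mean for the 3 references of a duration. This leaves 6 residual degrees of freedom, all from references of 2, 6 and 12 h, so a lone library is assumed to vary as they do. The common biological coefficient of variation was 5.09%. SE is the size of the log2 fold change divided by the square root of F. D used a pseudocount of 1, which understates the change of low genes. Tables used Python 3.11.15 with pandas 2.3.3.

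Named members were the 20 with the lowest mean D at a reference TPM of 3 or more, up to 5 per fixed list by level, 3 on each side of the threshold, 5 at each end of the TNFα against IFNγ difference, 5 with the lowest 6 h change and 5 higher at 12 h. Other members and genes named were chosen after their values were seen. There were 19 fixed lists and 10 added later. RefSeq promoters matched 346 of 448 members. Alternatives were DESeq2 1.42.0, other scaling, no filter on low counts, all 44 libraries, each reference left out, and other rule settings.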

Additional observations from a re-analysis of the deposited data

Results flagged for a closer look

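In 9 members the test of the IFNγ and TNFα effects at 12 h showed that the change with both cytokines differed from the sum of the changes with each, on the log2 scale. The combination was lower than the sum in BRI3BP (-0.72), F2R (-0.56), F2RL1 (-0.76), KANK2 (-0.74), PAGR1 (-0.96), PEG10 (-0.35), SLC46A1 (-0.91) and THBS1 (-0.49). It was higher than the sum in HCAR1 (1.06). Each value rests on 1 library per treatment.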

How the results depend on the processing

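DESeq2 (Wald test) called fewer members lower in the comparisons given here: 178 and 205 in supernatant 1/2 and the combination at 12 h, 94 and 106 at 6 h, and 15 and 14 at 2 h. It called 86 for 10 ng/ml TNFα and 47 for 100 ng/ml IFNγ at 12 h. At 24 h it called 34 lower and 9 higher with TNFα than with IFNγ, 60 lower with 10 than 0.1 ng/ml TNFα, 2 with 10 than 1 ng/ml, and 10 with 100 than 1 ng/ml IFNγ. It called 2 members higher and 3 lower in supernatant 1/2 than in the combination, 3 in the interaction, and 16 higher and 11 lower in references of 12 h than 2 h. With no filter on low counts the 10 against 1 ng/ml TNFα count was 29 and the interaction count 22, and with all 44 libraries 20 and 13. DESeq2 gave an adjusted p to 135 members for 100 against 1 ng/ml IFNγ and to 86 for the interaction, where edgeR tested 430. The cause of these differences was not tested.

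Leaving out each reference library in turn gave 300 to 310 members lower in supernatant 1/2 and 322 to 335 in the combination at 12 h. It gave 5 to 9 in the interaction, and 53 to 105 higher and 22 to 35 lower in references of 12 h than 2 h. A threshold on D of -0.8 gave 734 members and one of -1.2 gave 285. Of 1128 values of single members under an alternative, 1071 kept direction and side of the threshold, 36 lost and 18 gained the call, and 3 changed sign when a reference of 12 h was left out. ABCC3 in supernatant 1/2 ran from -0.10 to 0.012, MYO1D in the combination from -0.12 to 0.0014 and TM7SF2 in supernatant 1/2 from -0.16 to 0.10, on the log2 scale. Members called lower in both stimuli are not counted, since both share the reference libraries. No paired analysis was possible because each treatment and duration has 1 library. Members too low for the count filter could not be tested at this depth.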
